A study of Mus musculus with 2 samples.

Results

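Podoplanin-positive thymic epithelial cells (TECs) with low Ccl21a were examined in the scRNA-seq data of control and irradiated mouse thymus. The cells were chosen by measured values. Levels were expressed as unique molecular identifiers (UMIs, each standing for a single captured RNA molecule) per 10000 UMIs of the same cell, and a cell belonged to the group when it held at least 1 for Pdpn, under 60 for Ccl21a and under 1 for Aire. Further limits removed other TEC types: under 15 for Psmb11 and Prss16 together (cortical TECs), under 4 for Mki67 and Top2a and under 6 for Mcm2 to Mcm7 (dividing cells), under 5 for Avil and Trpm5 (tuft cells), under 10 for Krt10, Krtdap and Sbsn (keratinocyte-like cells) and under 5 for Pigr, Prap1, Guca2b and Muc13 (enterocyte-like cells). This left 442 of 8303 quality-filtered cells, hereafter called Pdpn+ Ccl21a-low cells.

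The cells came from female C57BL/6 mice, for which no engineered allele is named, and TECs had been sorted as EpCAM+ CD45- TER119- cells after enzymatic digestion of the thymus. One group of mice had received a sublethal dose of γ-rays to the whole body 15 days before analysis, and the other consisted of unirradiated mice of the same age. The labels give an age of 9 weeks, but 4 weeks in the protocol. Each group was a pool of 3 mice and gave 1 library.

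The deposited labels and file names disagreed on the groups. The files of the sample labelled as irradiated are named Contl, and those of the sample labelled as control are named Rad. The library labelled as irradiated held 4937 barcodes in all, which is fewer than the irradiated cells that the study kept, so the file names fit the study's cell numbers and the labels do not. The libraries are therefore called Contl and Rad here, every ratio is Rad over Contl, and every direction by condition would turn round if the labels were followed. The Contl library held 58185309 UMIs, of which 3233 cells were kept, and the Rad library held 82201657 UMIs in 7167 barcodes, of which 5070 cells were kept. Kept cells had 2000 to 7500 detected genes and under 15% mitochondrial UMIs. The libraries shared 17 barcodes, 1 of which was a Pdpn+ Ccl21a-low cell. With 1 library per condition there is no replicate, so no test between conditions was made. Intervals are exact 95% Clopper-Pearson intervals for shares, exact Poisson intervals for UMI sums and exact conditional binomial intervals for log2 ratios of genes. Those for log2 ratios of shares join opposite ends of the share intervals of both libraries, so their level is not exactly 95%. All cover counting error only, not differences between mice or preparations.

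Podoplanin, encoded by Pdpn (chr4:143267431-143299564, minus strand, GRCm38), is a mucin-type membrane glycoprotein that binds ERM proteins at the cell cortex, interacts with CD44 and galectin-8, and is the ligand of the platelet receptor CLEC-2. In the thymus it marks TECs near the corticomedullary junction that have been described as a source of medullary TECs. Ccl21a (chr4:42772860-42773993, minus strand) encodes a chemokine by which one type of medullary TEC attracts CCR7-expressing thymocytes into the medulla. It has near-identical copies whose reads can be split or discarded in counting. The other listed copies held 0 to 2 UMIs per library, so the assignment of its UMIs among copies is uncertain. Krt5 (chr15:101707070-101712898, minus strand) and Krt14 (chr11:100203162-100207548, minus strand) encode the paired keratins of basal epithelium.

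The limits cut through a continuous range of values. Pdpn per cell ran from 1.01 to 8.24 with a median of 1.89 in the Contl library, and from 1.00 to 6.70 with a median of 1.65 in the Rad library. These levels rest on few molecules, since 79 Contl and 77 Rad cells held 1 Pdpn UMI, 78 and 67 held 2, and 84 and 57 held 3 or more. Just inside the Pdpn limit, at 1 to under 1.2, lay 26 Contl and 52 Rad cells, and just outside, at 0.8 to under 1, lay 37 and 42 cells. Cells that failed only the Pdpn limit, called Pdpn-low cells here, were not all without the gene, since 19.2% of them in the Contl and 17.5% in the Rad library held a Pdpn UMI. Most of the group had hardly any Ccl21a. No Ccl21a UMI was found in 147 Contl cells (61.0%) and 94 Rad cells (46.8%), while 16 and 18 cells lay just inside the limit at 50 to under 60, and 13 and 22 cells just outside at 60 to under 70.

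**Figure D1:**
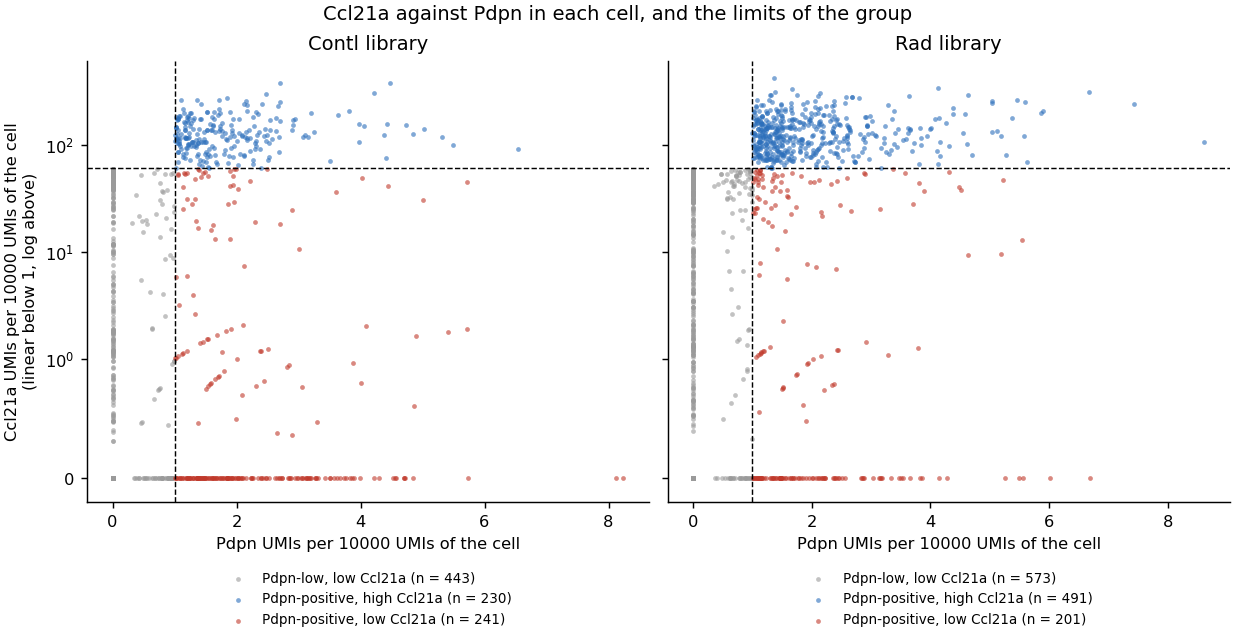
Ccl21a (vertical axis, UMIs per 10000 UMIs of the cell, linear below 1 and logarithmic above) against Pdpn (horizontal axis, same unit) in single cells of each library, with dashed lines at the limits of 60 and 1. Red points are the 241 Contl and 201 Rad Pdpn+ Ccl21a-low cells, of which 147 and 94 lie at a Ccl21a of 0. Blue points above the line are the 230 and 491 Ccl21a-high cells, and grey points are the 443 and 573 Pdpn-low cells.

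The group made up a smaller share of the kept cells in the Rad library than in the Contl library. It held 241 of 3233 Contl cells, or 7.45% (6.57 to 8.41), and 201 of 5070 Rad cells, or 3.96% (3.44 to 4.54). The log2 ratio of these shares was -0.91 (-1.29 to -0.53), which exceeds counting error but has no replicate behind it. Cells of the same limits with 60 or more Ccl21a, called Ccl21a-high cells here, went the other way, from 230 Contl cells (7.11%) to 491 Rad cells (9.68%). A cell needs fewer Pdpn molecules to pass at low depth, and the share was higher among shallow cells in both libraries. Among cells with under 10000 UMIs it was 14.2% and 7.57%, a log2 ratio of -0.91, and among deeper cells it was 4.76% and 2.32%, a log2 ratio of -1.03. After thinning to 4000 UMIs, with the few shallower Rad cells left out, the shares were 5.35% of 3233 and 3.10% of 5065 cells, with a log2 ratio of -0.79 (-1.23 to -0.35). The place of the Ccl21a limit mattered more. With a limit of 120 in place of 60, the shares were 10.9% and 8.62%, and the log2 ratio was -0.34. With a limit of 30 the shares were 6.56% and 3.02%, and the log2 ratio was -1.12. The Pdpn limit alone left nearly equal shares, 579 Contl (17.9%) and 889 Rad cells (17.5%), and the Ccl21a limit then left 312 and 331. Each of the other limits removed cells too. The Aire limit then took 28 Contl and 57 Rad cells, and the limit on Mki67 and Top2a took 5 and 28. Part of the difference in share therefore came in with limits other than the one on Ccl21a.

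The cells carried markers of thymic epithelium, at levels that differed from those of other TECs. Epcam, the surface protein used in the sort, stood at 5.31 UMIs per 10000 in the Contl and 7.90 in the Rad cells and was found in 94.2% and 97.0% of them. The simple-epithelial keratin Krt8 was found in 97.9% and 99.0%. Trp63, which encodes the p63 factor of stratified and thymic epithelium, was found in 87.6% and 91.5%, at 3.77 and 3.85 UMIs per 10000. Ly6a, which encodes the Sca-1 antigen of immature TECs, stood at 19.0 and 17.8 and was found in 91.3% and 88.6% of the cells. After thinning it was found in 88.0% and 82.6%, against 33.1% and 24.5% of cortical TECs, here the cells with 15 or more for Psmb11 and Prss16 that met the limits for the other TEC types. It was as frequent in the Ccl21a-high cells, at 86.5% and 86.2%, and was found in 65.0% and 63.5% of the Pdpn-low cells, so it is not particular to the group. Ly6a is 1 gene of a progenitor list. More than 2-fold in both libraries, 1 of 13 list genes was higher and 4 lower than in the Pdpn-low cells (all genes: 1.19% and 8.3%). Against Ccl21a-high cells 1 of 11 was higher and 0 lower (2.67% and 1.94%). Against cortical TECs 5 of 10 were higher and 0 lower (4.9% and 4.72%). The 6 genes of the pan-epithelial list, Epcam and Krt8 among them, summed to 36.3 and 41.8 UMIs per 10000 in the group. Their sums were higher elsewhere, at 43.2 and 44.5 in the Ccl21a-high and 49.5 and 44.2 in the Pdpn-low cells. In the cortical TECs they were 114 and 115. The median depth was 9836 and 9389 UMIs in the Pdpn+ Ccl21a-low cells, and 18677 and 17386 in the cortical TECs.

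Of the other markers given with the group, Krt14 was found in most cells of both libraries, and Krt5 in most cells of the Rad library only. Krt14 was found in 89.6% of Contl and 81.6% of Rad cells, with values per cell from 0 to 159 around a median of 5.35, and from 0 to 98.0 around a median of 6.86. Krt5 was found in 47.3% of Contl and 75.1% of Rad cells, with medians per cell of 0 and 5.30. At equal depth Krt5 was found in 38.2% (32.01 to 44.6) and 66.2% (59.2 to 72.7), against 36.3% and 58.9% of cortical TECs, a type that should hold little of it but had no limit on Ccl21a here, and 96.1% and 94.3% of the Ccl21a-high cells. Krt14 was found at equal depth in 76.3% and 75.1%, against 37.9% and 31.1% of cortical TECs. It was found in 91.3% and 90.6% of the Ccl21a-high and 59.1% and 66.7% of the Pdpn-low cells, so it is not particular to the group. The Krt5 shares lay close to those of the cortical cells, which are not a measured background, so whether single cells of the group express Krt5 cannot be read from these shares.

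Markers of other cells were looked for, since the sort and the rule do not exclude them all. The markers of endothelial and lymphatic vessels were nearly absent, with 5 of 8 genes at 0 UMIs in the Contl cells and 8 of 8 in the Rad cells, where a count of 0 allows a level of up to 0.0113 and 0.0137 UMIs per 10000 (3 UMIs of the group). The 13 thymocyte genes summed to 0.62 and 0.41 UMIs per 10000, against 10.5 and 11.2 in cortical TECs, and Trbc2 held the most. The 8 other leukocyte genes summed to 0.64 and 0.39, mostly Lyz2, with Ptprc at 0.0227 and 0.00457. The 4 erythroid genes summed to 0.011 and 0.023. Of 5 mesothelial genes Msln held the most, at 0.0756 and 0.68, and 68 of its 149 UMIs in the Rad cells lay in 1 cell and 42 in another. Fibroblast genes were different. The 9 genes of that list summed to 21.6 UMIs per 10000 in the Contl and 11.6 in the Rad cells, against 4.49 and 3.88 in the Ccl21a-high cells, and Dcn made up 18.6 and 9.57 of this. Fbln1, a matrix fibulin gene found in 51.0% and 49.8% of the cells, stood at 1.02 and 0.964, Col3a1 at 0.623 and 0.397, Col1a2 at 0.389 and 0.196 and Lum at 0.389 and 0.297. Of the defining markers, Pdgfra stood at 0.102 and 0.0365 and was found in 1.66% and 0.995% of the cells, and Col1a1 stood at 0.31 and 0.11 and was found in 3.73% and 0.995%. The 199 Contl and 170 Rad cells with no UMI of Pdgfra, Pdgfrb, Col1a1, Col1a2, Col3a1 or Lum held 16.5 (15.96 to 17.1) and 7.35 (6.97 to 7.75) Dcn UMIs per 10000, and the 42 and 31 cells with such a UMI held more, 26.5 (25.2 to 27.9) and 22.3 (20.7 to 23.99). Epcam stood at 5.32 and 8.01 in the former and at 5.28 and 7.25 in the latter. Dcn was thus present in cells without a UMI of these 6 genes and higher in cells with one, and how much of it came from fibroblast RNA was not tested.

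To learn what sets the group apart from Pdpn-positive cells that make the chemokine, it was compared with the Ccl21a-high cells, which met every other limit. Of 9140 genes with at least 50 UMIs over both groups of cells in each library, the genes of the rule left out, 244 (2.67%) were more than 2-fold higher in the Pdpn+ Ccl21a-low cells in both libraries and 177 (1.94%) were more than 2-fold lower. Since the groups were made by measured values, these are descriptions and no test was made. Ratios are of summed UMIs per 10000 with 0.5 UMIs added. The median log2 ratio of all compared genes was 0.07 in the Contl and 0.11 in the Rad library.

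The leading genes had varied known roles. Serpinf1, which encodes the secreted antiangiogenic serpin PEDF, stood at 2.13 UMIs per 10000 in the Contl and 1.43 in the Rad cells, against 0.0673 and 0.0523 in the Ccl21a-high cells, a log2 ratio of 4.94 and 4.75. Gpm6b, a proteolipid-family membrane protein gene, stood at 1.73 and 1.00 against 0.0935 and 0.0523. Il33, which encodes a nuclear alarmin cytokine, stood at 1.04 and 0.909 against 0.0748 and 0.093, and was found in 36.1% and 26.9% of the cells. The sodium channel gene Scn1a, the retinaldehyde dehydrogenase gene Aldh1a1, the glutathione transferase gene Gsta4, the carboxylesterase gene Ces1d and the GABA transaminase gene Abat completed the genes picked by the size of their smaller log2 ratio, between 3.11 and 3.82. In every one of these genes the levels of the Ccl21a-high cells lay below the Poisson intervals of the Pdpn+ Ccl21a-low cells in both libraries. That follows from picking the genes by their ratios in these same cells, so it is no further support.

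Igkc and Jchain, immunoglobulin genes of plasma cells, also led that list, but each rested on few cells. Of 1383 Igkc UMIs in the Contl cells, 1326 lay in 1 cell, which had 13255 UMIs in all, 8 of them Epcam, 13 Krt8 and 0 Ptprc. In the Rad cells 413 of 722 Igkc UMIs lay in 1 cell, and of the Jchain UMIs 65 of 85 and 30 of 68 did. For this reason the leading genes were picked again among those found in at least 20% of the cells of each library, a choice made after the values were seen. This brought in Ackr4 (chr9:104084157-104126933, minus strand), which encodes the decoy receptor that takes up CCL19, CCL21 and CCL25. Ackr4 stood at 3.20 (2.99 to 3.42) and 2.04 (1.86 to 2.24) UMIs per 10000, against 0.183 and 0.275 in the Ccl21a-high cells, a log2 ratio of 4.11 and 2.89. It was found in 56.8% and 43.8% of the cells at equal depth, against 5.22% and 9.98% of the Ccl21a-high, 24.8% and 18.8% of the Pdpn-low and 41.1% and 20.8% of the cortical cells. The second choice also brought in Prelp, a matrix leucine-rich repeat protein gene, at 2.13 and 1.49 against 0.311 and 0.203, with Selenbp1, Rassf2 and the thyroid hormone receptor gene Thra.

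Dcn and Gas1, both abundant in the group, differed by smaller factors. Dcn (chr10:97479609-97518143, plus strand) encodes decorin, a collagen-binding proteoglycan. It stood at 18.6 (18.1 to 19.1) UMIs per 10000 in the Contl and 9.57 (9.17 to 9.99) in the Rad cells, against 3.34 and 2.49 in the Ccl21a-high cells. Gas1 (chr13:60174405-60177365, minus strand), a growth-arrest gene whose product is a Hedgehog co-receptor, stood at 11.9 and 8.96 against 5.48 and 4.72. Its log2 ratio was 1.12 in the Contl library but 0.92 in the Rad library, short of 2-fold. Per cell, Dcn ran from 0 to 222 with a median of 13.9 in the Contl cells, and from 0 to 216 with a median of 4.47 in the Rad cells, so that the cells of the group differed widely among themselves.

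Among the genes lower in the group were 2 of the 7 compared genes of the list for Ccl21a-expressing medullary TECs. Ccl11, the eotaxin chemokine gene, stood at 1.31 and 3.22 UMIs per 10000 against 13.96 and 16.3, a log2 ratio of -3.41 and -2.34. Cxcl14, another chemokine gene, stood at 0.227 and 0.37 against 1.79 and 1.76. Pthlh, which encodes parathyroid hormone-related protein, stood at 0.242 and 0.347 against 1.92 and 1.90, and the sodium channel gene Scn7a at 0.155 and 0.26 against 1.31 and 1.43. Gpx3, the secreted glutathione peroxidase gene, had 0.71 and 1.48 against 6.24 and 6.26. Col2a1, Ecrg4, Lrp1b, Mansc4, Slitrk4 and Il13ra2 also led this side, at under 0.11 UMIs per 10000 in the group. Both sides depend on where Ccl21a is cut, since 112 genes were higher and 11 lower with the limit at 120. With that limit the smaller log2 ratio was 0.60 for Cxcl12 and -0.23 for Ccl11, both short of 2-fold.

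**Figure D2:**
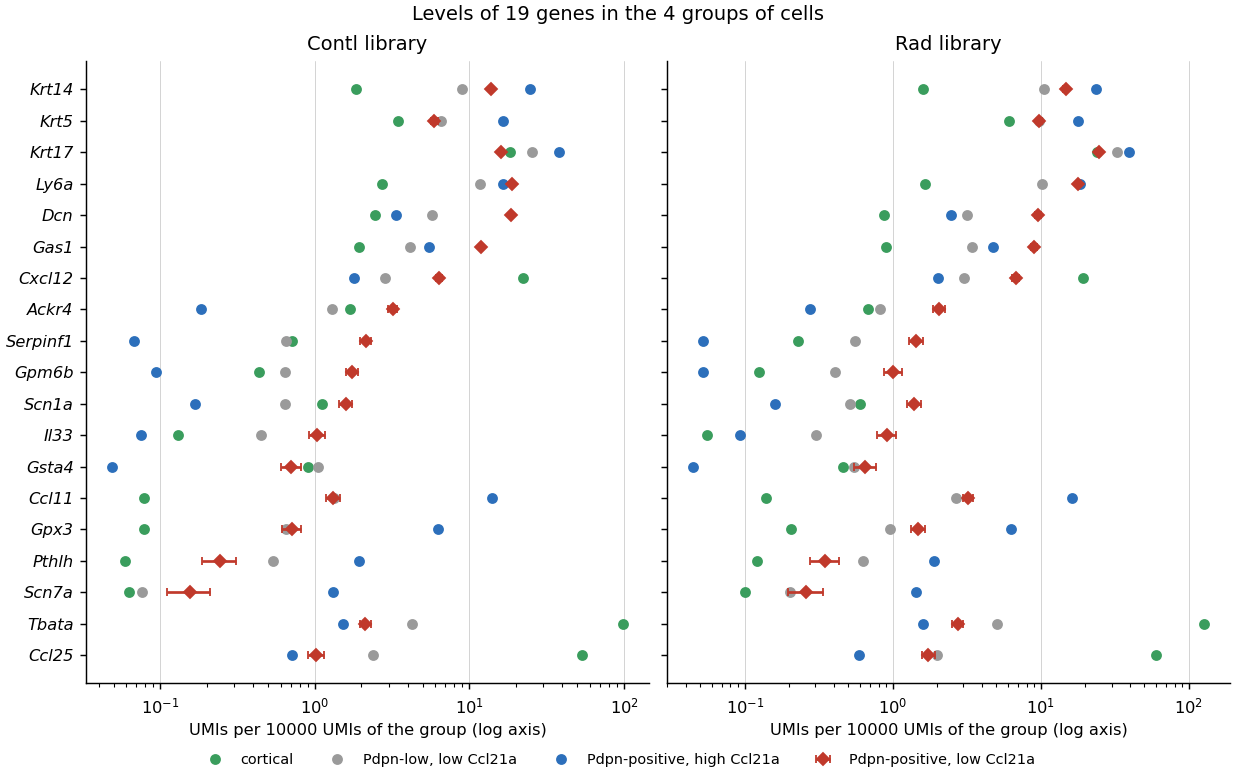
Level of 19 genes (horizontal axis, UMIs per 10000 UMIs of the summed cells, logarithmic) in the 4 groups of cells of each library. Diamonds with 95% Poisson intervals are the Pdpn+ Ccl21a-low cells, and circles are the Ccl21a-high, Pdpn-low and cortical cells. From Dcn to Gsta4 the diamonds lie to the right of the Ccl21a-high circles, Serpinf1 for instance at 2.13 and 1.43 against 0.0673 and 0.0523, and from Ccl11 to Scn7a they lie to the left.

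Among thymocyte niche factors, the signals by which TECs keep and guide developing T cells, 3 of 10 compared genes were higher than in the Ccl21a-high cells and 1 was lower. Cxcl12 (chr6:117168535-117181367, plus strand), the CXCR4 ligand, stood at 6.36 (6.06 to 6.67) and 6.75 (6.41 to 7.10) UMIs per 10000 against 1.80 and 2.02, levels below the 22.4 and 19.2 of cortical cells. Kitl, stem cell factor, stood at 1.04 and 0.84 against 0.153 and 0.165, and Il34, a CSF1R ligand, at 0.178 and 0.269 against 0.0187 and 0.0426. Ccl19, the second CCR7 ligand, was lower at 0.661 and 1.85 against 3.45 and 5.08. Il7 stood at 1.54 and 1.56 against 2.47 and 2.33, and Jag2, a Notch ligand, at 1.55 and 1.197 against 0.767 and 0.606, a log2 ratio of 1.02 and 0.98 that passed 2-fold only in the Contl library. The median log2 ratio of the 10 genes was 0.69 and 0.66.

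Few receptors and targets of growth factor signals passed 2-fold. Of all compared genes 2.67% were higher and 1.94% lower. Beside these shares, the small counts given here do not set a list apart. Of 25 genes of the BMP, WNT, FGF and TGF-β pathways 2 were higher, Fgfr1 at 0.234 and 0.192 against 0.0786 and 0.0639 and Tgfbr2 at 0.854 and 0.758 against 0.355 and 0.308. One was lower, the WNT receptor gene Fzd2 at 0.442 and 0.772 against 1.68 and 2.25. Bmp4, at 0.212 and 0.11, had too few UMIs to be counted. Of 13 Notch genes 2 were lower: Hes6 at 0.616 and 1.18 against 2.48 and 2.38, and Heyl at 0.0416 and 0.1005 against 0.183 and 0.327. Of 14 genes of the RANK, CD40, lymphotoxin and NF-κB pathways only Tnfaip3, the A20 feedback inhibitor, passed 2-fold, at 0.287 and 0.196 against 0.711 and 0.486. Eya1, Pax9, Pax1 and Foxn1, which act in the making of the thymic rudiment, did not pass 2-fold against the Ccl21a-high cells. None of 7 podoplanin partners passed it either, and Ezr, which encodes the ERM protein ezrin, stood at 3.21 and 2.62 against 1.85 and 2.05. Of 20 matrix genes 2 were higher, the hemidesmosomal collagen gene Col17a1, at 0.404 and 0.269 against 0.142 and 0.0813, and the basement membrane collagen gene Col4a5, and Col6a1, at 2.29 and 3.45 against 6.76 and 6.92, and Col6a2 were lower.

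The second comparison asked what goes with Pdpn among cells of low Ccl21a. The Pdpn-low cells, 443 in the Contl and 573 in the Rad library, met every limit except that on Pdpn, and they are a mixture. Of 10960 compared genes 130 (1.19%) were more than 2-fold higher in the Pdpn+ Ccl21a-low cells in both libraries, and 910 (8.3%) were lower. Several lower genes belonged to a few cells of the Pdpn-low side. Pth, the parathyroid hormone gene, stood at 24.97 and 26.5 UMIs per 10000 there and was found in 20 and 23 cells, but 2 cells held 7686 and 6875 of its 14792 UMIs in the Contl library and 2 held 6646 and 6333 of 18954 in the Rad library. In the group it stood at 0.0151 and 0.00913. The granin gene Chga stood at 5.65 and 3.61 against 0.0302 and 0.0183. More widely, Fabp4 stood at 18.4 and 10.8 against 0.283 and 0.722, Cd52 at 5.11 and 3.20 against 0.242 and 0.0731, and Hdc, a gene of Aire-expressing lineages, at 1.02 and 0.715 against 0.117 and 0.0731. All 7 compared genes of mature medullary TECs were lower in the group, Fezf2 at 0.397 and 0.534 against 2.54 and 2.45 and Tnfrsf11a, the RANK gene, at 0.253 and 0.393 against 1.05 and 1.09.

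Dcn and Gas1 were higher than in the Pdpn-low cells too. Dcn stood at 5.73 and 3.16 in the Pdpn-low cells, a log2 ratio of 1.70 and 1.60, and Gas1 at 4.15 and 3.44, a log2 ratio of 1.52 and 1.38. The small leucine-rich proteoglycan genes Fmod, at 0.79 and 0.251 against 0.238 and 0.0769, and Bgn, at 0.911 and 0.543 against 0.187 and 0.119, were higher with Prelp. Lum, Col1a2, Col3a1 and Col15a1 were higher as well but were found in few cells, Lum in 6.22% and 3.98%. Of the 8 compared fibroblast genes 4 were higher, and of 21 matrix genes Col18a1 and Sparc were. Among genes found in at least 20% of the cells were the Four-jointed homologue Fjx1, at 0.846 and 0.384 against 0.258 and 0.13, the cation channel gene Trpm3, at 0.839 and 0.822 against 0.307 and 0.267, and Tspan9, Aebp1, Igsf10, Fbln7 and Serpinf1. Of 27 genes of the BMP, WNT, FGF and TGF-β pathways 4 were higher, Bmp4, Fgfr1, the activin inhibitor Fst and Tgfbr2, and Bmp2 and Tgfb2 were lower. Of all compared genes 1.19% were higher and 8.3% lower, so 2 lower genes do not set this list apart. Of 12 niche factors Cxcl12 and Dll1 were higher and 1 was lower, with Dll1 at 0.457 and 0.297 against 0.179 and 0.122.

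Against cortical TECs (124 Contl and 331 Rad cells with 15 or more for Psmb11 and Prss16), 448 of 9148 genes (4.9%) were higher in the group in both libraries and 432 (4.72%) were lower. The markers used by the limits apart, all 9 compared genes of the cortical list were lower. Tbata, a gene of unknown biochemical function with high expression in cortical TECs, stood at 2.12 and 2.74 UMIs per 10000 against 98.6 and 126, and Ccl25, the CCR9 ligand, at 1.02 and 1.74 against 53.5 and 60.4. Foxn1, the master regulator of TECs, stood at 0.457 and 0.507 against 1.59 and 1.75. The thymocyte genes Rag1, Cd4, Ccr9 and Themis were among the leading genes on this side, and 12 of 12 compared thymocyte genes were lower, at a summed level of 0.62 and 0.41 against 10.5 and 11.2. Without cells that held 2 or more UMIs of the thymocyte list 275 genes were lower. Higher in the group were Gsn, the actin-severing protein gelsolin, at 10.0 and 10.4 against 1.15 and 1.12, and Igfbp4, at 5.46 and 4.36 against 0.465 and 0.154. Of 12 niche factors 0 were higher and 3 lower, among them Cxcl12, which stood at 22.4 and 19.2 in the cortical cells and was found there in 96.0% and 96.1% of cells at equal depth, against 75.1% and 69.2% of the group. Of 23 genes of the BMP, WNT, FGF and TGF-β pathways 5 were higher and 0 lower, among them the BMP target Id3 at 6.41 and 5.72 against 1.79 and 0.89. The median log2 ratio of all compared genes was -0.04 and 0.00.

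The Pdpn+ Ccl21a-low cells were not uniform, and their profile moved with the amount of Ccl21a. Cells with under 5 Ccl21a made up 195 of the Contl cells (80.9%) and 123 of the Rad cells (61.2%), cells at 5 to under 20 numbered 12 and 13, and cells at 20 to under 60 numbered 34 and 65 (14.1% and 32.3%). From the lowest to the highest of these ranges Dcn went from 21.6 over 16.2 to 3.68 in the Contl library and from 12.9 over 6.58 to 4.26 in the Rad library. Ackr4 went from 3.74 to 1.09 and from 2.92 to 0.68, Cxcl12 from 7.13 to 3.35 and from 9.49 to 2.29, and Serpinf1 from 2.49 to 0.507 and from 2.24 to 0.18. Basal keratins went the other way. Krt5 went from 4.25 to 13.999 and from 5.47 to 16.8, and Krt17 from 11.7 to 35.8 in the Contl library and up to 44.8 in the Rad library. Ccl11 did not move in 1 direction. It went from 0.958 over 0.516 to 3.50 in the Contl library and from 1.64 (1.43 to 1.87) over 0.369 (0.135 to 0.804) to 6.74 in the Rad library, below the 13.1 and 19.4 of the cells at 60 to under 120. Pdpn itself stayed between 1.84 and 2.37 in all ranges of the Contl cells within the limits and between 1.91 and 2.28 in those of the Rad cells. Neighbouring ranges overlapped in their Poisson intervals for several genes where only 12 and 13 cells were counted.

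**Figure D3:**
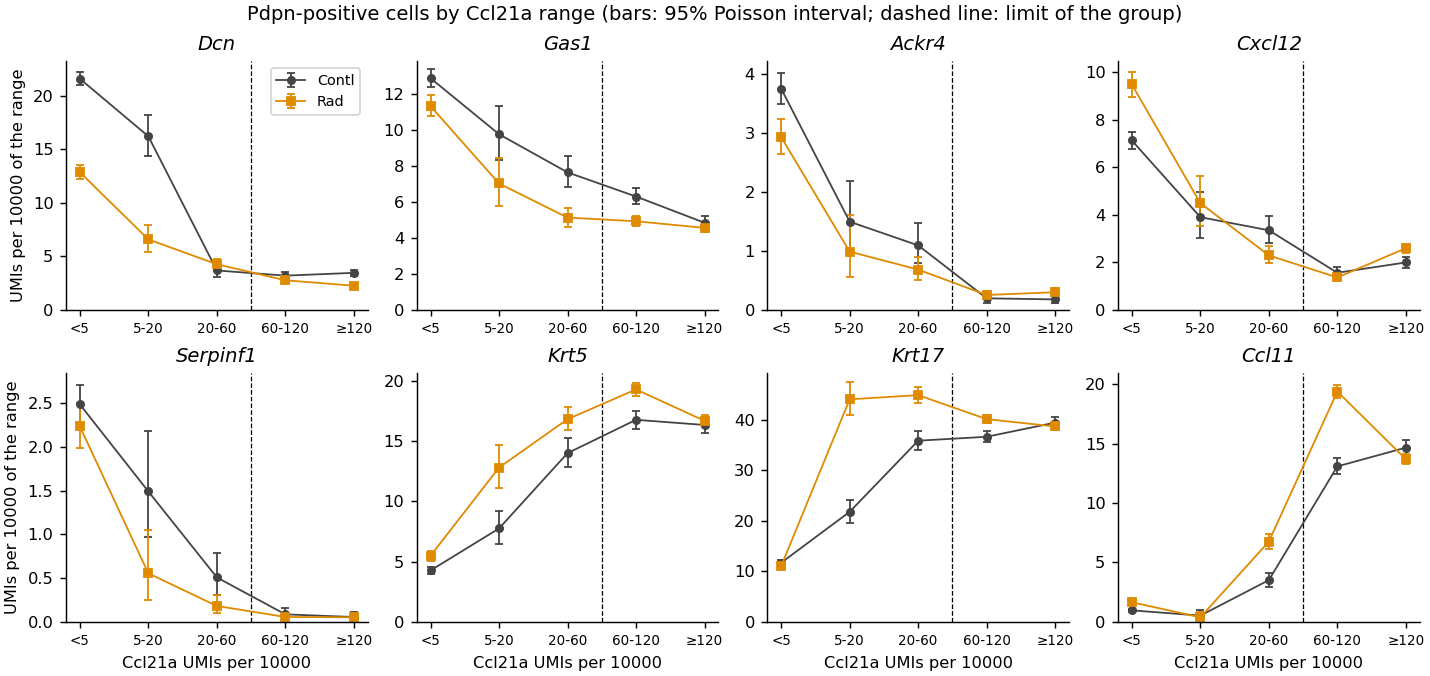
Levels of 8 genes (vertical axes, UMIs per 10000 UMIs of the range, linear) in Pdpn-positive cells by their Ccl21a (horizontal axis, UMIs per 10000), with 95% Poisson intervals, dark circles for the Contl and orange squares for the Rad library. The dashed line is the limit of 60, to the right of which lie the Ccl21a-high cells. Dcn, Gas1, Ackr4, Cxcl12 and Serpinf1 fall towards the limit, Dcn from 21.6 to 3.68 in the Contl library, and Krt5 and Krt17 increase towards it, while Ccl11 is lowest at 5 to under 20.

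Principal components of the 442 cells over 5818 genes, without those of the rule, were computed to see how the cells differ among themselves. The first component held 2.18% of the variance and had a correlation of 0.062 with the logarithm of UMIs over the cells, as a description. Cxcl12, Pltp, Mgll, Ackr4, Oat, Gas6 and Txnip lay with Dcn at one end, and Fcgbp, Wfdc18, Tagln2, H2-Q7, H2-M2 and Krt5 lay at the other. The means of the libraries on it, 1.27 and -1.53, were close beside SDs of 10.4 and 12.1 over cells. The second component held 1.57% and had a correlation of -0.611 with the logarithm of UMIs. The libraries lay farther apart on it, with means of 3.33 and -3.99 and SDs of 9.56 and 7.90, and Malat1, Ly6a, Dcn, Klf2, Egr1, Fosb and Fos lay at the Contl end and Gapdh, H2afz and Btf3 at the other. Junb and Fos lay at one end of the third.

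The libraries were compared within the group to see what differed beyond its size. Of 6739 genes with at least 100 UMIs, 235 (3.49%) were more than 1.5-fold higher in the Rad than in the Contl cells, and 283 (4.2%) were more than 1.5-fold lower. The median log2 ratio was 0.03. Depth and mitochondrial share were similar, with medians of 9836 and 9389 UMIs and medians of 6.42% and 6.34% mitochondrial UMIs. Genes of immediate early response and some interferon-inducible genes were lower in the Rad cells. Krt5 and Ccl19 were higher over the whole group, but among cells of like Ccl21a Krt5 fell short of 1.5-fold and Ccl19 passed it only above 5 Ccl21a UMIs per 10000.

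The genes at the top of both ends were mostly those of single cells. Bpifa1, an airway secretory gene, had 2349 UMIs in the Rad cells, 2347 of them in 1 cell, and its log2 ratio of 7.83 was 0.28 without the cell of each library that held the most. Iglc1 had 207 UMIs in 1 Rad cell, and Spp1 had 223 of 226 in 1 Rad cell. At the other end Mstn had 150 of 151 UMIs in 1 Contl cell, Ighg2b 297 of 300, and Rbp4, Ltf and Pyy came from 2 Contl cells each. Among 6502 compared genes found in at least 20% of the cells of either library, 197 were higher and 227 lower in the Rad cells.

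Klf2 had the largest decrease among broadly found genes. Klf2 (chr8:72319033-72321656, plus strand) encodes a zinc-finger factor induced by shear stress and by stress signals in many cells. It was found in 69.7% of Contl and 32.3% of Rad cells, at 7.64 (7.31 to 7.98) and 0.859 (0.74 to 0.991) UMIs per 10000, a log2 ratio of -3.15 (-3.38 to -2.94). In the Ccl21a-high, Pdpn-low and cortical cells its log2 ratio was -1.22, -2.05 and -0.19.

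The AP-1 and heat shock list holds transcription factors and feedback genes that respond within minutes to mitogens and stress, together with chaperones. All 20 genes were compared, 17 were lower in the Rad cells and 0 were higher, and the median log2 ratio was -1.14. Fos (chr12:85473890-85477273, plus strand) stood at 23.3 (22.8 to 23.9) in the Contl and 6.87 (6.53 to 7.23) in the Rad cells, a log2 ratio of -1.76. Its partner Fosb stood at 6.74 and 1.47, a log2 ratio of -2.20, and Jun at 24.7 and 11.002. Atf3 (chr1:191170296-191218039, minus strand), a stress-induced factor, went from 8.32 to 1.47, a log2 ratio of -2.50, and was found in 56.0% and 29.9% of the cells. Egr1 went from 12.9 to 4.42 and Zfp36, which encodes an mRNA-destabilizing protein, from 9.68 to 3.13. The 3 genes short of 1.5-fold were the chaperone genes Hspa1a, Hsp90aa1 and Hspa8, with log2 ratios of -0.51, -0.17 and -0.11. The same list had medians of -0.96, -1.15 and -1.05 in the Ccl21a-high, Pdpn-low and cortical cells. The medians of all compared genes in the 4 groups of cells lay between -0.01 and 0.03. The lower AP-1 values were thus found in each group, and whether they come from the mice or from the handling of each preparation cannot be told apart.

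The interferon list holds genes induced by type I and type II interferons. Of 20 genes 6 were lower in the Rad cells and 0 higher, with a median log2 ratio of -0.25, and the medians in the Ccl21a-high, Pdpn-low and cortical cells were 0.04, 0.15 and 0.07. The difference between the groups of cells was not tested. Iigp1, an immunity-related GTPase gene, stood at 13.6 (13.1 to 14.04) in the Contl and 5.59 (5.28 to 5.91) in the Rad cells, with a log2 ratio of -1.28 beside -0.15 in the Ccl21a-high cells. The interferon regulatory factor gene Irf1 went from 2.64 to 0.941, Ifit1 from 3.73 to 2.32, Rsad2 from 0.495 to 0.201, and the guanylate-binding protein genes Gbp2 and Gbp7 from 1.75 to 0.941 and from 0.926 to 0.543. Isg15, which encodes a ubiquitin-like protein, did not pass 1.5-fold, at 5.27 and 4.77. Outside the list, Cxcl10, the interferon-inducible CXCR3 ligand, went from 13.1 (12.6 to 13.5) to 3.28 (3.04 to 3.53), with log2 ratios of -1.99 in the group and -1.04, -0.56 and -0.71 in the other cells. Its ratio was -1.08 among cells with any Pdpn UMI and -2.60 among those with 2 or more. In these Contl cells 1 cell held 435 of 3456 Cxcl10 UMIs.

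Promoters of these genes were read to show what they share in sequence. Only the 250 bases before the annotated start were searched, on both strands. The interferon-stimulated response element, sought as GAAA, any pair of bases and GAAA, was present in 10 of 15 available promoters of the interferon list. It was present in 3.463% of 27025 genes. The stretches of the 4 genes of that list that were lower in the Rad cells and hold the element, and of Cxcl10, are shown 5′ to 3′ on the strand of the gene, with the matched letters in capitals (RefSeq, GRCm38.p6). They lie at chr19:34640765-34640833 (plus strand) for Ifit1, chr12:26456543-26456592 (minus strand) for Rsad2, chr3:142620584-142620633 (plus strand) for Gbp2, chr3:142530263-142530312 (plus strand) for Gbp7 and chr5:92349073-92349122 (minus strand) for Cxcl10.
Ifit1: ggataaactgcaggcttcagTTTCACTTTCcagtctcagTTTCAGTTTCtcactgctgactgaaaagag
Rsad2: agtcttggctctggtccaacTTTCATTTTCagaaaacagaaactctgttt
Gbp2: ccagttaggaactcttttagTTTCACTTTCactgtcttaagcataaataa
Gbp7: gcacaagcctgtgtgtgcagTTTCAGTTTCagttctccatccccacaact
Cxcl10: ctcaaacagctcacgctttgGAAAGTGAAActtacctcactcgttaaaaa

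Ifit1 holds the element at 2 places of the stretch and the others at 1, on the strand opposite to the gene except in Cxcl10. Members of the list that were not lower, such as Isg15 and Ifit3, hold it as well, so the element does not separate the genes that differed from those that did not. In the AP-1 and heat shock list 16 promoters were available. The cyclic AMP response element, sought as TGACGTCA, was found in 1 of them, Dusp1, a MAP kinase phosphatase gene, and in 1.769% of all genes. The CArG box bound by serum response factor was found in 1, Zfp36, and in 1.624% of all genes. The AP-1 site itself, sought as TGACTCA, which shares its first letters with the other element, was found in 0 of 16 and in 5.162% of all genes. The 2 stretches are shown in the same way, from chr17:26508588-26508635 (minus strand) for Dusp1 and chr7:28379257-28379306 (minus strand) for Zfp36. A match is a description of letters and not a binding site.
Dusp1: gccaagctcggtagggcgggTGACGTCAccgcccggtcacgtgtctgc
Zfp36: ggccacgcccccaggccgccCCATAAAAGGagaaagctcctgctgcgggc

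The p53 list holds genes that respond to DNA damage. Of 13 compared genes Mdm2, the p53 ubiquitin ligase gene, was higher in the Rad cells at 0.521 and 0.822, and Btg2, which is also an immediate early gene, was lower at 13.3 and 7.17. Beside the 3.49% and 4.2% of all compared genes that were higher and lower, single genes either way are too few to set the list apart. The median log2 ratio was 0.42, beside 0.14, 0.25 and 0.29 in the Ccl21a-high, Pdpn-low and cortical cells. Cdkn1a, which encodes the p21 inhibitor of the cell cycle, stood at 0.824 and 1.10, a log2 ratio of 0.42 (0.15 to 0.69), short of 1.5-fold.

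Notch genes had 3 of 10 higher and 1 lower in the Rad cells, with a median log2 ratio of 0.30. Of all compared genes 3.49% were higher and 4.2% lower. The counts in this paragraph are small, and whether these lists stand apart was not tested. The receptor gene Notch1 went from 0.786 to 1.25, and the targets Hey1 and Hes6 from 0.423 to 0.936 and from 0.616 to 1.18, while the ligand gene Dll1 went from 0.457 to 0.297. Their log2 ratios in the Ccl21a-high cells were 0.05, 0.38, -0.06 and -0.10. Among 8 keratins Krt5, Krt15 and Krt17 were higher and 0 were lower. Krt5 went from 5.94 to 9.75, Krt17 went from 15.9 to 24.6, a log2 ratio of 0.63, and Krt14 stood at 13.8 and 14.7. The ratio of Krt17 was 0.53 and short of 1.5-fold without cells that held thymocyte UMIs. It was short of it too with Ccl21a limits of 30 and 120, at 0.55 in each. Of 9 niche factors Ccl19, Ccl25 and Il34 were higher and Dll1 was lower, Ccl19 going from 0.661 to 1.85. Of 17 matrix genes Col6a1 and Col6a2 were higher, but none was within ranges of Ccl21a. H2-M2, a nonclassical MHC class I gene, went from 0.729 to 2.64, a log2 ratio of 1.85 that was 0.86 among cells with any Pdpn UMI and 0.52, short of 1.5-fold, among those with 2 or more. The cystine transporter gene Slc7a11 went from 0.291 to 1.00, and the Hedgehog inhibitor Hhip from 0.128 to 0.525.

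The fibroblast list went the other way, with 4 of 6 compared genes lower, and a median log2 ratio of -0.80. Dcn had a log2 ratio of -0.96 (-1.03 to -0.88) in the group and -0.42, -0.86 and -1.48 in the Ccl21a-high, Pdpn-low and cortical cells. Among cells with no UMI of the 6 fibroblast genes named above, Dcn went from 16.5 to 7.35, and among those with one from 26.5 to 22.3. Gas1 went from 11.9 to 8.96 and Ackr4 from 3.20 to 2.04, log2 ratios of -0.41 and -0.65.

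The Rad cells of the group held more Ccl21a than the Contl cells, at 14.5 and 7.73 UMIs per 10000, so the libraries were also compared within ranges of Ccl21a. Keratins and Ccl19 depended on the range. Among the 195 Contl and 123 Rad cells with under 5 Ccl21a, the log2 ratio of Krt17 was -0.085, that of Ccl19 was -0.35 (-1.19 to 0.42) and that of Krt14 was -0.63. Among the 46 Contl and 78 Rad cells from 5 to under 60, the log2 ratios of these genes were 0.50, 0.90 (0.616 to 1.202) and 0.32. Krt5 had 0.36 and 0.41 in the lower and the higher range, both below its 0.72 over the whole group. The decreases of Klf2, Atf3, Fos, Cxcl10 and Dcn were past 1.5-fold in both ranges, with log2 ratios of -3.12 and -3.15, -2.62 and -2.48, -1.69 and -1.95, -2.33 and -1.63, and -0.75 and -0.68. Those of Ackr4, Gpm6b and Gas1 were past it only in the higher range, with -0.36 and -0.72, -0.45 and -1.12, and -0.19 and -0.60. Of 5403 genes compared in the lower range 163 (3.02%) were higher and 201 (3.72%) lower in the Rad cells, and of 2433 in the higher range 109 (4.48%) were higher and 148 (6.08%) lower. Beside these shares, 17 of 20 and 17 of 19 AP-1 and heat shock genes were lower in the lower and the higher range. Of the interferon genes 6 of 20 and 3 of 16 were lower. Notch genes had 4 of 9 higher and 1 lower in the lower range, and 1 of 5 higher and 0 lower in the other, with median log2 ratios of 0.32 and 0.06. Of the p53 genes 2 of 11 were higher and 1 lower in the lower range and 3 of 8 and 1 in the other, with medians of 0.35 and 0.23. Niche factors had 2 of 8 higher and 1 lower in the lower range, and 2 of 6 higher and 0 lower in the other. The cortical list had 3 of 7 higher and 0 lower in the lower range, with a median of 0.55. In the other range it had 1 of 5 higher and 0 lower, with a median of -0.12. Keratins had 0 of 7 higher in either range and 1 lower in the lower range. Matrix genes had 0 of 17 and 0 of 13 higher and 2 lower in the lower range, Col6a1 having log2 ratios of 0.086 and 0.36.

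**Figure D4:**
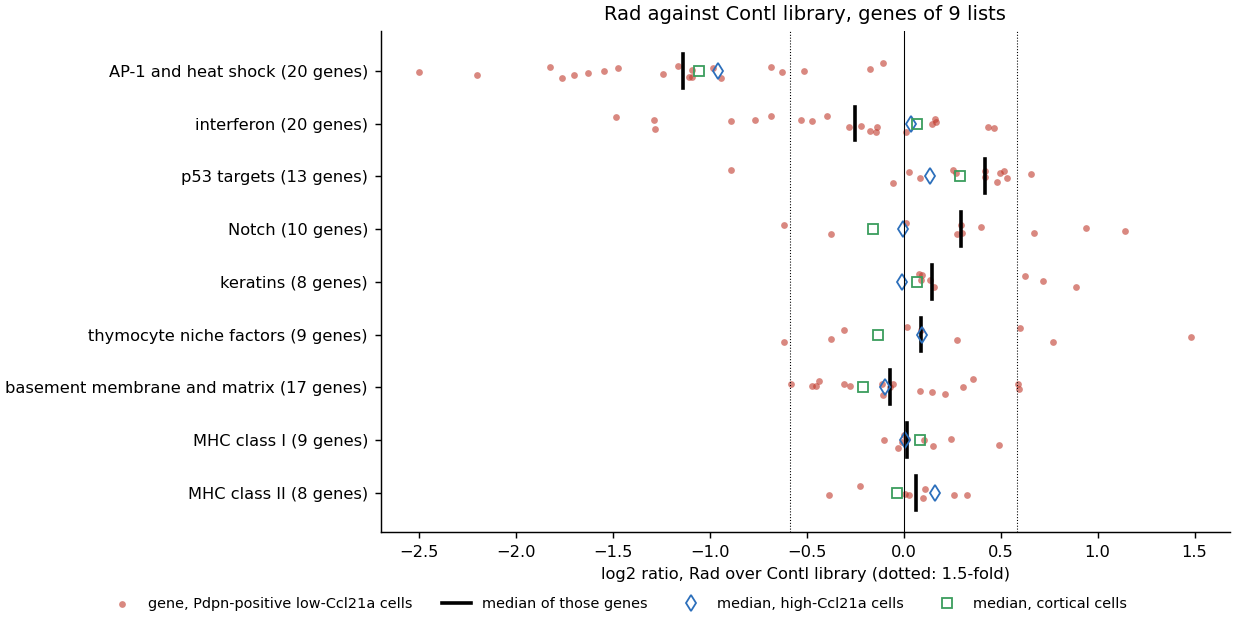
Log2 ratio of Rad over Contl (horizontal axis) for the compared genes of 9 lists in the Pdpn+ Ccl21a-low cells (red points, 1 per gene, spread vertically only to be visible), with the median of the list as a black bar and the medians of the same genes in Ccl21a-high and cortical cells as open diamonds and squares. Dotted lines mark 1.5-fold. The AP-1 and heat shock genes lie left of 0 with a median of -1.14, close to -0.96 and -1.05 in the other cells, and the interferon genes have a median of -0.25 beside 0.04 and 0.07.

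In 9 compared genes of MHC class I and 8 of MHC class II none passed 1.5-fold, with median log2 ratios of 0.02 and 0.07, and Cd74, the invariant chain gene, stood at 97.5 and 99.6 UMIs per 10000. None of 14 receptors of IL-22, KGF and other cytokines, 7 podoplanin partners or 5 integrins passed it. Of 20 genes of the BMP, WNT, FGF and TGF-β pathways Fzd2 was higher, and of 11 of the RANK and NF-κB pathways Tnfrsf11a and Relb were higher. The epithelial ETS factor gene Ehf was also higher, at 0.196 and 0.42. Beside the 3.49% of all compared genes that were higher, counts of 1 of 20 and 2 of 11 are too few to set these lists apart. Pdpn, which the rule used, stood at 2.26 (2.09 to 2.45) and 2.03 (1.85 to 2.23).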

How the data were processed

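Both libraries were prepared with 10x Genomics chemistry (v2 per the labels, v3 in the study's methods). The authors made the deposited UMI counts per gene and cell with Cell Ranger on mm10 (5.0.1 in the file headers, 5.1 in the submitters' processing notes) and 32285 listed genes. No reads were used. Cells with 2000 to 7500 detected genes and under 15% mitochondrial UMIs were kept. Doublets were not removed, but leaving out the 5% deepest cells was tried.

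The members and gene lists were chosen with earlier results of these data known. Counts were summed per library and group and scaled to 10000, with 0.5 UMIs added in log2 ratios. A gene passed against another group at over 2-fold in both libraries (50 UMIs or more in each) and between libraries at over 1.5-fold (100 UMIs or more). The text names the 10 genes with the largest ratios on each side, the same among genes found in 20% of cells, and list members. Some genes are not reported here. Intervals were exact, at 95%, except those for log2 ratios of shares. Counting was checked on simulated data. Python 3.11.15, numpy 2.4.6, scipy 1.17.1, pandas 2.3.3 and matplotlib 3.10.9 were used. Gene positions are those of GRCm38.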

Additional observations from a re-analysis of the deposited data

Results flagged for a closer look

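In 5 genes named above or on the lists the log2 ratio of Rad over Contl had one sign in the Pdpn+ Ccl21a-low cells and the other in the Ccl21a-high cells, with intervals of counting error on either side of 0. The share of all genes that did so is not given here, so the count of 5 is not read as a result. In the Ccl21a-high cells the intervals of Gbp2 (0.00049 to 0.43) and Ccl25 (-0.54 to -0.0027) nearly reached 0. There is 1 library per condition, so the difference between the groups of cells was not tested. Gbp2, an interferon-inducible GTPase gene, had -0.89 against 0.21, going from 1.75 to 0.941 UMIs per 10000 in the Pdpn+ Ccl21a-low cells and from 0.995 to 1.15 in the Ccl21a-high cells. Skint10 had 1.30 against -0.35, going from 0.212 to 0.525 and from 1.30 to 1.02. Ccl25, the CCR9 ligand gene, had 0.77 against -0.27, going from 1.02 to 1.74 and from 0.711 to 0.589.

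Ackr4, the gene of the decoy receptor for CCL19, CCL21 and CCL25, had -0.65 against 0.58, going from 3.20 to 2.04 and from 0.183 to 0.275. Pyy, the peptide YY gene, had -5.10 against 1.67, but its 103 UMIs in the Contl Pdpn+ Ccl21a-low cells came from 2 cells.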

How the results depend on the processing

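Of 562 values of 36 results under 21 alternative settings, 447 stayed within counting error or within 1.5 times the count and 113 moved. Of 336 values of single genes 331 kept their sign, and 2 that had passed 1.5-fold did not, the Rad over Contl log2 ratios of Krt17 and Ccl19, at -0.085 and -0.35 among cells under a Ccl21a limit of 5. The settings with that limit, with genes found in 20% of cells and without the cell of most UMIs were chosen after seeing the data. The share of the group in the Contl library was 10.1% with any Pdpn UMI, 5.23% with 2 or more, 6.56% and 10.9% with Ccl21a limits of 30 and 120, and 5.35% after thinning. In the Rad library it was 5.94%, 2.54%, 3.02%, 8.62% and 3.10%, and 3.35% with a limit of 5 on Psmb11 and Prss16. The log2 ratio of the shares was -1.12 and -0.34 at the Ccl21a limits of 30 and 120.

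Genes higher than in the Pdpn-low cells numbered 243 and 85 with 1 and 2 or more Pdpn UMIs, 215 and 37 with Ccl21a limits of 30 and 120, 219 with the lower limit on cortical genes, 63 with at least 200 UMIs, 67 with a mean over cells and 83 among genes in 20% of cells. Genes lower than in the Ccl21a-high cells numbered 329 and 11 with Ccl21a limits of 30 and 120, and 83 with at least 200 UMIs. Genes higher than in those cells numbered 112 with a limit of 120, 75 and 437 with at least 200 and 20 UMIs, and 130 in 20% of cells. Genes lower than in the Pdpn-low cells numbered 353, 1443 and 245 with at least 200 and 20 UMIs and in 20% of cells. Against cortical cells 148, 783 and 239 were higher under the same settings, 215 were lower with at least 200 UMIs, and 275 without cells with thymocyte UMIs. Genes higher and lower in the Rad cells numbered 43 and 77 with at least 400 UMIs and 457 and 542 with at least 50. The median of the AP-1 and heat shock list was -1.003 with 2 or more Pdpn UMIs. Counts of called genes thus depend on the UMI minimum. Their dependence on depth was not tested. No paired analysis was possible because each condition has 1 library.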
